A study of Mus musculus with 4 samples.

Results

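The cytoplasmic ribosomal protein genes encode the protein parts of the ribosome that translates nuclear mRNAs. They were taken by symbol from the gene list of the deposited matrices, as every name that starts with Rps or Rpl and a digit, every Rplp gene and Rpsa, without kinases, binding proteins and labelled pseudogenes. The rule gave 85 genes of 32287 features, of which 33 belong to the small (40S) subunit and 52 to the large (60S) subunit, the P-stalk proteins included. Of the 85 members, 84 had at least 30 UMIs in every library (a UMI is 1 counted RNA molecule), and Rpl10l had 2 UMIs in all.

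RNA was counted at its 3′ end in single cells of mouse hearts in 4 libraries, made from sorted live nucleated cells. The control hearts carried Tcf21-MerCreMer, a tamoxifen-inducible Cre recombinase driven from a gene of cardiac fibroblasts. The other hearts carried Tcf21-MerCreMer:flox, and all 4 groups received tamoxifen. For each genotype, 1 library came from hearts without infarction and 1 from hearts at day 3 after myocardial infarction, and 4 values in a sentence follow the order control without infarction, flox-labelled without infarction, control after infarction and flox-labelled after infarction. The labels do not say how many animals were pooled, what their age or strain was, or which part of the gene is floxed. Tcf21 itself was read at 95.8, 147, 22.0 and 32.8 CPM (UMIs of the gene per 1e+06 UMIs of the class) in fibroblasts, so it was not lower in the flox-labelled libraries, and since a 3′ read may lie outside the deleted part this does not check the genotype. Each group has 1 library, so no difference could be tested: intervals below are 95% intervals of counting error only, and differences between animals, batches and conditions cannot be told apart.

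The libraries held 55710468 to 129704045 UMIs over 9149 to 11541 barcodes, and any pair of libraries shared 19 to 41 barcode sequences. Of 37003 cells kept, 31 of 38 clusters were named by marker genes, with the ribosomal protein genes left out of the clustering. The 7 unnamed clusters held 14.2% of the cells. All 10 fibroblast markers were read in fibroblasts of every library. Their summed level was 39989, 43219.5, 11477 and 19677 CPM. Dcn and Gsn carried most of it without infarction, at 15410.0 and 16172 CPM in the control, and were at 1576 and 254 CPM after it, while Col1a1, at 1465, 1522, 3537 and 3612 CPM, Col1a2 and Postn were higher after infarction in both genotypes. In the flox-labelled libraries Dcn and Gsn were at 16601 and 17407 CPM without infarction and at 4874 and 2456 CPM after it. Pdgfra, Lum, Dpt and Tcf21 were lower after infarction in both genotypes, and Mfap5 only in the control.

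A ribosome needs most of its proteins in equal numbers, and their genes are transcribed at high levels in growing cells. Vertebrate ribosomal protein mRNAs are known to begin with a 5′ terminal oligopyrimidine (TOP) tract, a C followed by an unbroken run of C and T bases, through which the mTOR pathway controls their translation. Pairs of paralogs, such as Rpl3 and its muscle paralog Rpl3l, add variation to a family that otherwise moves together.

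RefSeq promoter windows on GRCm38.p6 covered 65 of the 85 members. A TOP start, here C at the annotated start followed by at least 4 further C or T bases on the coding strand, was found at an annotated start in 14 of the 65 members (21.5%), against 813 of 27025 genes with a window (3.01%). With a C and 4 further pyrimidines allowed to begin within 15 bases on either side of the start, the shares were 72.3% and 44.9%. A window without a match says only that these letters do not stand at that annotated start. Windows of 30 bases are shown for members whose levels the results below turn on, 10 bases before the annotated start and 20 from it, with the run of C and T bases at the start in capitals. The first 6 hold a TOP start, and the other 8 do not at their annotated start.
Rps18: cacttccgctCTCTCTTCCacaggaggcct
Rpl15: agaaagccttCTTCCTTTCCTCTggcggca
Rps21: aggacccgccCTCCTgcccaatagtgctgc
Rpl35a: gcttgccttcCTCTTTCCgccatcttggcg
Rps27: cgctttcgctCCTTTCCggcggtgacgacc
Rps27rt: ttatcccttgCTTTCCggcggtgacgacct
Rpsa: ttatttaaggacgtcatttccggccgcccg
Rps2: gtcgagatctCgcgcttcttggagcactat
Rplp0: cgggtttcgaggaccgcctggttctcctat
Rpl26: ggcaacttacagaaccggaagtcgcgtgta
Rps9: cttgtctctcTTTgtctcgggcctgagttc
Rps27l: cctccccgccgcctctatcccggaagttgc
Rpl22l1: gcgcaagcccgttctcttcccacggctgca
Rpl36al: ccgtcgctcaggttcagttccgacttccgc

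The windows with a TOP start lie at chr17:33955646-33955675 (minus strand) for Rps18, chr14:18270967-18270996 (minus) for Rpl15, chr2:180257369-180257398 (plus) for Rps21, chr16:33056472-33056501 (plus) for Rpl35a, chr3:90213629-90213658 (minus) for Rps27 and chr9:114982720-114982749 (minus) for Rps27rt. Those without one lie at chr9:120127756-120127785 (plus) for Rpsa, chr17:24720053-24720082 (plus) for Rps2, chr5:115559457-115559486 (plus) for Rplp0, chr11:68901556-68901585 (plus) for Rpl26 and chr7:3704031-3704060 (plus) for Rps9. The paralog windows lie at chr9:66946076-66946105 (plus) for Rps27l, chr3:28805498-28805527 (plus) for Rpl22l1 and chr12:69184048-69184077 (minus) for Rpl36al. Rps21, Rpl35a and Rps27l have more than 1 annotated start, and 1 is shown. The members lie on 19 chromosomes, with 4 on the X chromosome.

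Over the 4 libraries, the family supplied 58267655 of 401681655 UMIs (14.5%). Its part was 9.07%, 11.9%, 17.0% and 16.1% of all UMIs in the 4 libraries, a figure that also follows the cell types each library held. The 10 members with most UMIs, among them Rpl13, Rps29, Rplp1, Rps24 and Rpl23, together made up 21.2% of the family. Rpl13, a 60S protein, led with 2.70% of the family's UMIs. At the other end Rpl7l1 made up 0.0535% and Rps27rt 0.0229%, and Rpl3l and Rpl39l gave 600 and 518 UMIs in all.

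Of the named classes, lymphocytes gave the largest part of their UMIs to ribosomal proteins in every library. In T and NK cells the family held 25.6%, 27.98%, 30.7% and 31.9% of UMIs, and in B cells 23.2%, 24.7%, 28.5% and 29.6%. Among named classes with at least 50 cells, these ranked first and second in each of the 4 libraries, and no other passed 21.7%. Within T and NK cells, a cluster led by the T-cell genes Lef1, Tcf7 and Cd3g held 31.1%, 34.3%, 36.0% and 36.5%. A cluster led by the cytotoxic genes Gzma and Nkg7 held 20.9%, 19.1%, 23.3% and 24.96%, below the T-cell cluster in all 4 libraries. Without infarction these clusters had 36 to 65 cells a library, and median UMIs per cell over the 4 libraries were 3858.5 to 6856 in the first and 3799 to 5335 in the second.

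Neutrophils lay at the low end. The family held 5.07% of their UMIs in the flox-labelled library without infarction. After infarction it held 6.07% in the control and 5.59% in the flox-labelled library. Among named classes with at least 50 cells, neutrophils were lowest in each of these 3 libraries. The control library without infarction had too few neutrophils for a value (the minimum was 50 cells), and there mural cells, the pericytes and smooth muscle cells around vessels, were lowest at 4.50%. Mononuclear phagocytes, the class of monocytes and macrophages, held 14.4%, 15.1% and 14.6% in the same 3 libraries, the first from 58 cells. Dendritic cells were measured only after infarction, at 17.9% in the control and 19.99% in the flox-labelled library, from 59 and 58 cells. A larger cluster led by Cd209a and H2-Eb1 was left unnamed and lies outside the class. There the family held 24.5%, 24.6%, 21.3% and 20.4% in the 4 libraries, from 26, 20, 487 and 377 cells.

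**Figure D1:**
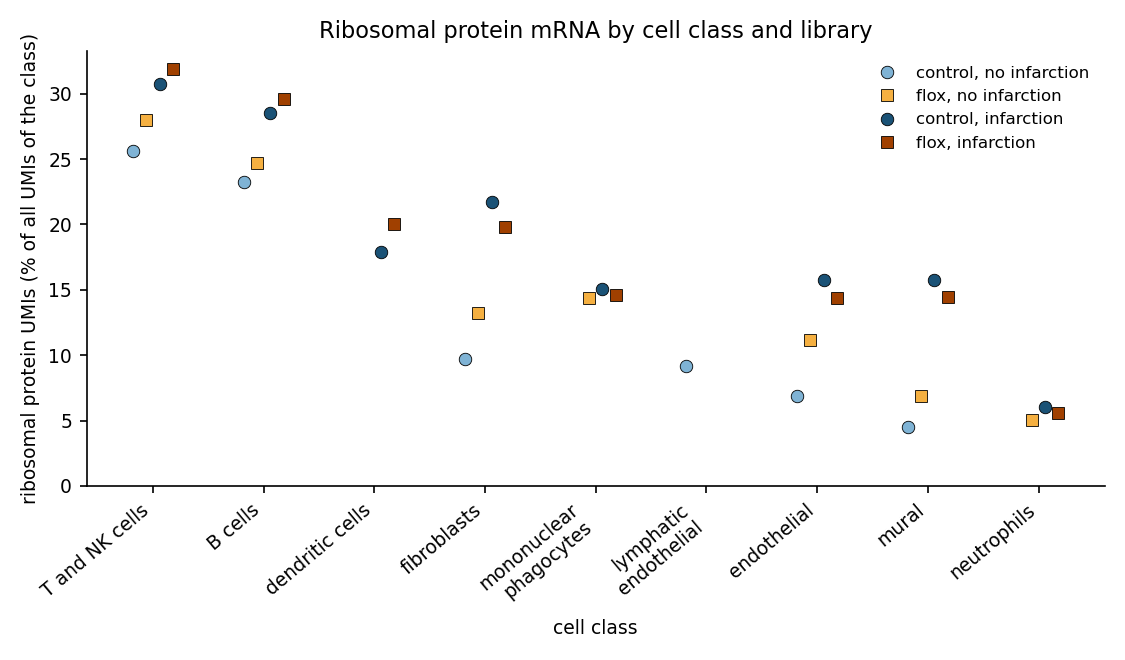
Share of all UMIs that came from the 85 ribosomal protein genes (y axis, percent) for each cell class (x axis) with at least 50 cells, 1 point per library. T and NK cells and B cells are highest in every library, and the fibroblast points run from 9.70% to 21.7%.

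Fibroblasts, endothelial cells and mural cells had the widest range between libraries. The family held 9.70%, 13.2%, 21.7% and 19.8% of fibroblast UMIs, 6.87%, 11.2%, 15.7% and 14.4% of endothelial UMIs and 4.50%, 6.85%, 15.7% and 14.4% of mural UMIs. In all 3 classes both infarction libraries lay above both libraries without infarction. The share per fibroblast had quartiles of 7.46% and 11.2% in the control library without infarction. In the control library after infarction they were 18.8% and 24.1%, so these ranges did not overlap. The quartile ranges of flox-labelled fibroblasts did overlap, running from 11.2% to 15.1% in uninfarcted hearts and from 14.6% to 21.9% at day 3. Endothelial and mural quartile ranges were likewise apart in the control hearts and overlapped in the flox-labelled hearts. The large subunit gave 1.25 to 1.28 UMIs per UMI of the small subunit in fibroblasts of the 4 libraries, and 0.943 to 1.10 in neutrophils of the 3 libraries with at least 50 of them.

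The first comparison asks how the family differed with infarction in control hearts. In fibroblasts its share was 2.24-fold higher after infarction, a log2 ratio of 1.16 (1.16 to 1.17), with 1.17 for the 40S and 1.16 for the 60S members. The median of all 13027 genes compared was -0.30. Members were compared where 1 of the sums held 30 UMIs or more. Of 83 such members, 76 were at least 1.5-fold higher and 1 at least 1.5-fold lower, where 24.3% of all genes were that much higher and 40% that much lower. Endothelial cells had a log2 ratio of 1.19 and mural cells of 1.80. There 76 of 82 and 80 of 81 members were at least 1.5-fold higher, against 24.1% and 26% of all genes, and none was at least 1.5-fold lower, against 36.2% and 34.9%. Lymphocytes differed less, with log2 ratios of 0.30 in B cells and 0.26 in T and NK cells. In B cells 9 of 82 members were that much higher and 1 lower, against 9.74% and 26.7% of all genes, and in T and NK cells 3 and 1 of 82, against 12% and 20.2%.

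In flox-labelled hearts the same comparison gave smaller ratios. The fibroblast share had a log2 ratio of 0.58 (0.58 to 0.59) of infarction to none, and 46 of 83 members were at least 1.5-fold higher and 1 at least 1.5-fold lower, against 19.1% and 31.9% of all genes. Endothelial cells had a log2 ratio of 0.36 and mural cells of 1.08. In endothelial cells 23 of 83 members were at least 1.5-fold higher and 4 lower, against 18.6% and 25.1% of all genes, and in mural cells 67 and 1 of 82, against 16.1% and 27.8%. The ratio was 0.14 in neutrophils, where 31 members were higher and 7 lower of 83, against 29.6% and 17.1% of all genes. It was 0.02 in mononuclear phagocytes, from 58 cells without infarction, with 6 higher and 9 lower of 83, against 16.1% and 42.3%. B cells had a ratio of 0.26, with 18 higher and 1 lower of 82, against 10.8% and 14.4%, and T and NK cells of 0.19, with 12 and 4 of 82, against 13.4% and 13.6%. Whether the 2 genotypes differ in this response was not tested, and the libraries without infarction differed as described next.

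Without infarction the flox-labelled library lay above the control in all 5 classes compared. The log2 ratio of flox-labelled to control was 0.45 in fibroblasts, 0.70 in endothelial cells, 0.60 in mural cells, 0.09 in B cells and 0.13 in T and NK cells. In fibroblasts 80 of 83 members had a ratio above 0, but 14 were at least 1.5-fold higher and 1 lower, against 6.88% and 5.38% of all genes. In endothelial cells 60 of 83 were higher and none lower, against 7.78% and 5.57%, and in mural cells 45 of 82 and none, against 12.8% and 12.3%. After infarction the ratio was -0.13 in fibroblasts, -0.13 in endothelial cells, -0.12 in mural cells, -0.12 in neutrophils and -0.05 in mononuclear phagocytes. It was 0.05 in B cells and in T and NK cells and 0.16 in dendritic cells. The dendritic cells came from a cluster led by Siglech, with 28 control and 42 flox-labelled cells, and another led by Ccl22, with 31 and 16. In the Siglech cluster the family held 21.7% in the control and 20.4% in the flox-labelled library, the opposite direction to the class. In the Ccl22 cluster it held 15.27% and 18.999%, and the part of this mix was not tested. No member was at least 1.5-fold higher and 1 was at least 1.5-fold lower in fibroblasts, against 10.8% and 3.73% of all genes. In endothelial and mural cells the counts were the same, none higher and 1 lower of 82, against 11.2% and 2.08% of all genes in the first and 12.7% and 3.1% in the second. These comparisons share their libraries with the comparisons by infarction, so they are not independent of them.

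The makeup and the depth of the fibroblasts moved with these shares. Median UMIs per fibroblast were 10473, 13328, 33044 and 20620.5. Fibroblasts after infarction fell mostly in 1 cluster led by the matrix and remodelling genes Cthrc1, Ptx3 and Tnc, with 861 cells in the control and 820 in the flox-labelled library, and 5 cells in each library without infarction. In that cluster the family held 21.9% in the control and 21.1% in the flox-labelled library. The clusters led by Gfra1 and Smoc2 and by Myoc and Cilp held most fibroblasts without infarction. In the flox-labelled library after infarction they still held 124 and 438 cells, with shares of 14.6% and 15.5%, against 13.3% and 13.3% in the same clusters without infarction. Within the Myoc cluster the control values were 10.1% without infarction and 14.7% from 25 cells after it.

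The other classes were also held by different clusters in the libraries compared. Of endothelial cells after infarction, 211 of 228 in the control and 265 of 514 in the flox-labelled library were in a cluster led by Tmem252, Apln and Plvap, against 22 of 4030 and 27 of 4864 without infarction. In that cluster the family held 9.62%, 12.3%, 15.8% and 15.3%. In the clusters led by Car4, by Sema3g and by Ifi44, the flox-labelled shares without and after infarction were 11.15% and 11.4%, 10.1% and 11.04%, and 12.2% and 12.1%. In a cluster led by Vwf they were 11.9% and 13.0%. The control shares without infarction were, in the same order of clusters, 6.65%, 6.91%, 7.01% and 7.98%. After infarction they were 11.2%, 11.5%, 18.6% and 13.9%, from only 8, 6, 1 and 2 cells. The 9 neutrophil markers summed to 18.8, 37.2, 704 and 646 CPM in endothelial cells and to 6.13, 25.3, 298 and 194 CPM in mural cells, and their part in these ratios was not tested.

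Mural cells after infarction were mostly in a cluster led by Des and Rgs16, with 72 of 85 cells in the control and 104 of 182 in the flox-labelled library. Without infarction most were in a cluster led by Vtn and Kcnj8, with 142 of 199 and 358 of 557 cells. Within the Des cluster the family held 5.45%, 4.22%, 16.1% and 16.2%, the first from 48 cells. The cells of that cluster were shallow without infarction, with median UMIs of 1311, 1556, 12836.5 and 11664.5 in the same order. Mitochondrial genes held 6.85%, 9.11%, 3.16% and 3.76% of their UMIs, and the part of depth was not tested. Within the Vtn cluster the family held 4.22%, 5.71%, 8.64% and 7.01%, with 8 control and 55 flox-labelled cells after infarction. Of flox-labelled neutrophils, 104 of 107 without infarction were in a cluster led by Retnlg, and 2379 of 3264 after infarction in a cluster led by Il1r2. Within the Retnlg cluster the flox-labelled share was 5.06% without and 4.45% after infarction, the opposite direction to the class. Of the 58 flox-labelled phagocytes without infarction, 40 were in a cluster led by Ear2 and Treml4, which held 52 of 2310 after infarction, with shares of 13.0% and 12.3%. The 8 B-cell markers summed to 5182 CPM in those 58 cells and to 258 CPM after infarction, and their part was not tested. A cluster led by Lyve1 and Cd163, with 353 flox-labelled cells without infarction and a share of 12.2%, was left unnamed and lies outside the class.

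Family share was also higher in deeper cells of a library. Cells were split by depth in 4 equal bins. From the shallowest to the deepest bin of fibroblasts, the median share went from 7.58% to 10.0%, from 12.3% to 13.0%, from 20.1% to 22.2% and from 14.9% to 21.3% in the 4 libraries, although the flox-labelled library without infarction was highest in its second bin, at 13.6%. The bins hold different depths and clusters in each library, and the part of depth in the difference was not tested. Endothelial medians rose from 5.14% to 7.58%, 8.05% to 12.6%, 10.1% to 17.0% and 10.1% to 15.4%. Other signals moved in fibroblasts as well. The 18 cell cycle genes summed to 0.00900%, 0.0105%, 0.142% and 0.0989% of UMIs, the 10 mural markers to 240.2, 271.7, 1909 and 1343 CPM, and the 9 neutrophil markers to 4.42, 20.2, 593 and 303 CPM. Their part in the family's difference was not tested.

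Around the shared difference, the members farthest above the family came from both subunits. A member was counted as departing when its log2 ratio lay at least 1.5-fold from the family's own median ratio. In control fibroblasts, infarction against none, 13 of 83 members departed, 6 above and 7 below, where 62.1% of all genes lay 1.5-fold or more from their median. Rps18, a protein of the 40S head, was read at 906, 1706, 3289 and 3302 CPM. Its control log2 ratio was 1.86 (1.84 to 1.88), the highest of the members.

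Rps2, which sits near the mRNA entry channel, was read at 1261, 1737, 4475 and 4509 CPM in fibroblasts, and Rpsa, the laminin receptor protein of the 40S subunit, at 1531, 1850 and, after infarction, 5116 and 4608 CPM. Both were lower in each library without infarction than in each library after it. Their log2 ratios were 1.83 and 1.74 in the control and 1.38 and 1.32 in the flox-labelled hearts. Rplp0, the P-stalk base that helps recruit elongation factors, went from 1330.4 and 1767 to 4459 and 4273 CPM. Rpl15, a 60S core protein, had ratios of 1.80 and 1.21, and Rpl41, the smallest 60S protein, 1.81 and 0.81. Of these 6, Rps18 and Rpl15 have a TOP start in the windows above.

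Rpsa, Rps2 and Rplp0 also departed upward in endothelial cells, by larger amounts. Their control log2 ratios there were 2.37, 2.37 and 2.10, and their flox-labelled ratios 1.58, 1.58 and 1.26. As a part of the family, Rpsa in endothelial cells made up 0.939%, 0.760%, 2.13% and 1.77%. In B cells the range was narrower, and Rpsa made up 1.47%, 1.22%, 1.80% and 1.74%.

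Most members farthest below the family have short coding sequences, although Rpl41, among the highest, is short as well. Rpl21 and Rpl7l1, with longer ones, also departed downward in the control, with log2 ratios of 0.54 and 0.57. Rps27, a zinc-finger protein of the 40S subunit, was read at 1098.5, 1878, 1539 and 1266 CPM in fibroblasts. It was thus higher after infarction in the control, with a log2 ratio of 0.49, and lower after infarction in the flox-labelled hearts, with a ratio of -0.57. Rps21 had ratios of 0.56 and -0.39, Rpl35a of 0.51 and -0.33, and Rps29 of 0.62 and -0.15. Under a median-of-ratios scaling, which raised every ratio of the flox-labelled comparison alike, Rps29 lay above 0 and the other 3 stayed below it. The flox-labelled comparison had 13 of 83 members departing, 3 above and 10 below, against 48.7% of all genes. Rps27, Rps27rt, Rps29, Rpl35a, Rpl37 and Rpl37a lay below the family in all 7 classes compared in the flox-labelled hearts, lymphocytes and neutrophils included. The share of all genes 1.5-fold or more from their median there was 24.5% in B cells, 26.7% in T and NK cells, 42.2% in mural cells, 43% in endothelial cells, 47.3% in neutrophils and 57.8% in mononuclear phagocytes. All 7 values share the flox-labelled libraries. In the control comparison Rps27 departed downward in 3 of 5 classes, where the shares for the other 4 were 59.1% in endothelial cells, 61.2% in mural cells, 32.6% in B cells and 30.9% in T and NK cells.

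**Figure D2:**
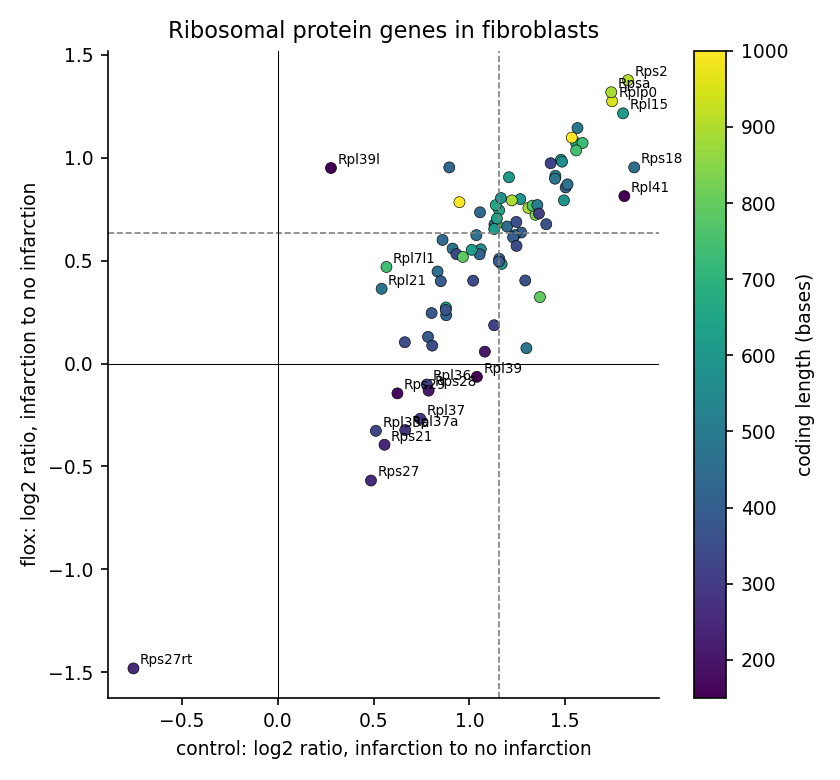
Log2 ratio of CPM in fibroblasts, infarction to no infarction, for 83 members in control (x axis) and flox-labelled (y axis) hearts, with the color giving coding length in bases and dashed lines the family medians of 1.15 and 0.64, from comparisons that share no library. Rps2, Rpsa, Rplp0 and Rpl15 are at the upper right, and Rps27, Rps21 and Rps27rt at the lower left, where short coding sequences prevail.

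These departures followed coding length across genes. Members were split in 4 by coding length, from 138 to 353, 357 to 453, 456 to 624 and 633 to 1257 bases. From the shortest to the longest, the median log2 ratio with infarction in fibroblasts was 0.79, 1.13, 1.28 and 1.33 in the control and 0.06, 0.60, 0.80 and 0.77 in the flox-labelled hearts. For flox-labelled against control without infarction it ran the other way, at 0.64, 0.47, 0.39 and 0.32. Spearman's rho over the 83 members, which share their libraries and are not replicates, was 0.48, 0.59 and -0.59 in these 3 comparisons. After infarction the flox-labelled to control medians were -0.23, -0.11, -0.13 and -0.16, with a rho of 0.21. The shortest members were therefore highest, relative to the rest, in the flox-labelled library without infarction, which enters both the second and the third comparison. Whether RNA quality or library preparation moved with this was not tested.

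Rpl26 and Rpl29 had their lowest part of the family in 1 library each. Rpl26, a 60S protein near the polypeptide exit, made up 1.48%, 0.847%, 1.23% and 1.09% of the family's UMIs in fibroblasts. In B cells it made up 1.35%, 0.773%, 1.33% and 1.15%, and in endothelial cells 1.54%, 0.904%, 1.29% and 1.14%. The flox-labelled library without infarction was lowest in every class measured. Rpl26 lay below the family in all 5 classes in the comparison of flox-labelled with control without infarction, by -0.70 to -0.81 on the log2 scale. In fibroblasts 2 of 83 members departed in that comparison, against 12.2% of all genes, and the shares of all genes in the other classes were 13.2% in endothelial, 24.8% in mural, 17.3% in B and 21% in T and NK cells. They were Rpl26, with a log2 ratio of -0.36, and Rpl39l, which had 42 and 27 UMIs.

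Rpl29, a basic 60S protein, was low in the flox-labelled library after infarction. Its part of the family was 0.429%, 0.454%, 0.471% and 0.318% in fibroblasts, 0.634%, 0.657%, 0.651% and 0.408% in endothelial cells and 0.326%, 0.409%, 0.374% and 0.245% in B cells. In fibroblasts it was read at 416, 599.8, 1023 and 631 CPM, a log2 ratio of -0.70 for flox-labelled against control after infarction. No member departed from the family in fibroblasts there, where 14.2% of all genes lay that far from their median, and Rpl29 came nearest at -0.55. Over all classes it departed downward in 5 of 8. The shares of all genes in the other 7 were 12% in endothelial cells, 14.7% in mural cells, 9.41% in neutrophils, 6.99% in mononuclear phagocytes, 8.66% in B cells, 9.77% in T and NK cells and 30.6% in dendritic cells. Rps3a1, a 40S protein, followed at 1299, 1883, 3354 and 2355 CPM, a log2 ratio of -0.51.

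**Figure D3:**
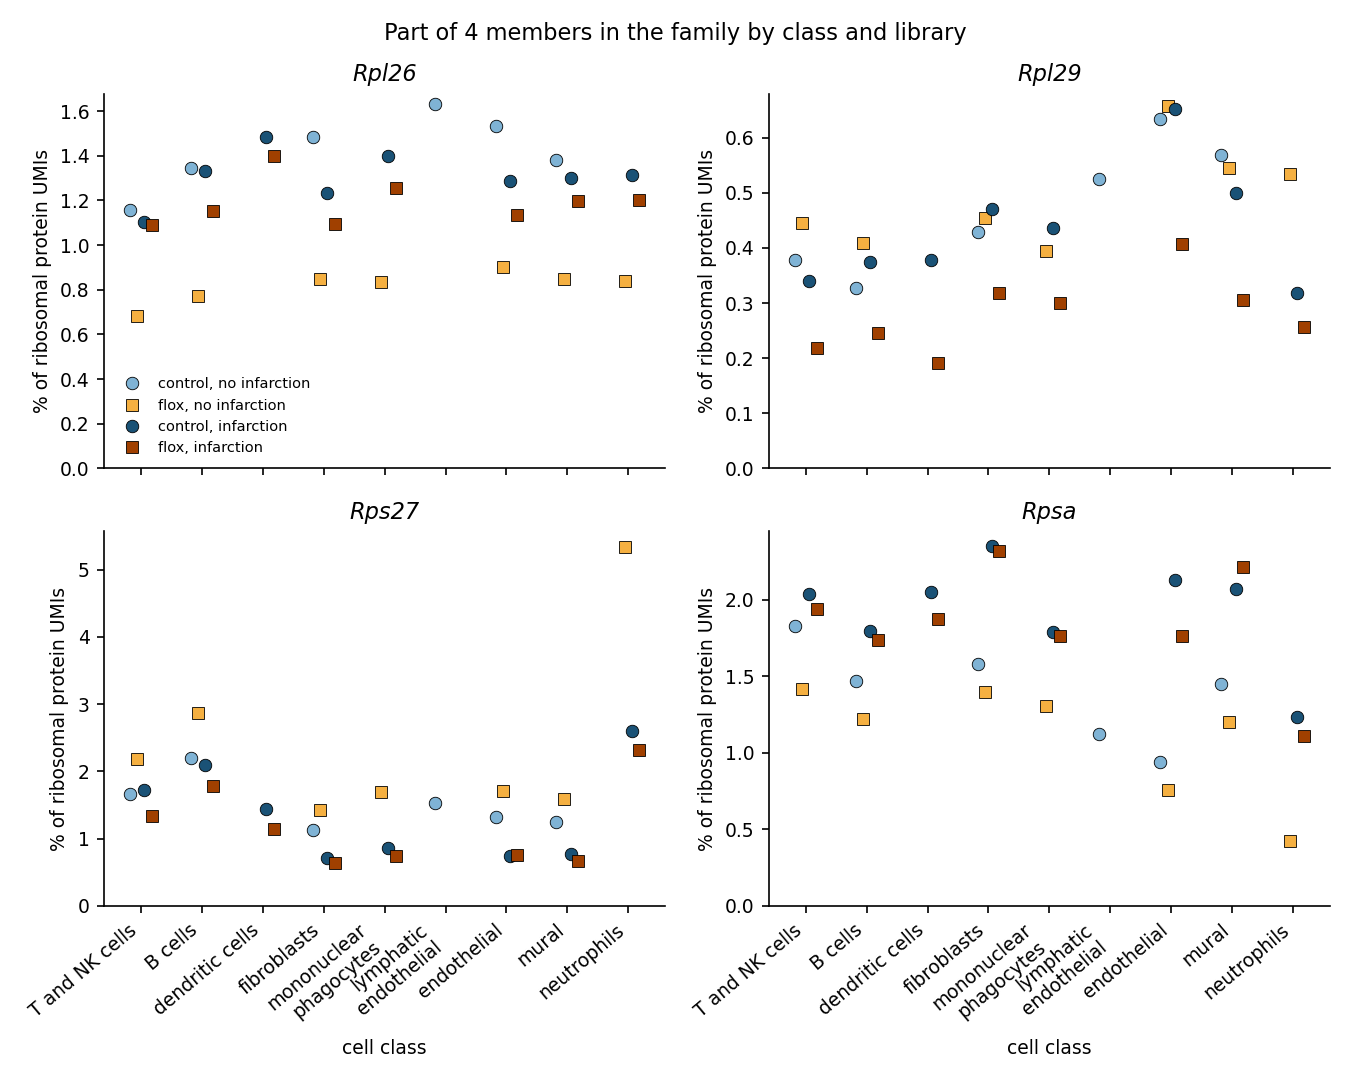
Part of the family's UMIs (y axis, percent) taken by Rpl26, Rpl29, Rps27 and Rpsa in each cell class (x axis), 1 point per library. Rpl26 is lowest in the flox-labelled library without infarction and Rpl29 in the flox-labelled library after infarction across the classes, while Rps27 is highest in neutrophils.

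Many members have near-identical matches among other annotated genes, and reads can be split between them or discarded. For 53 of the 85, at least 1 other annotated gene matched the last 300 bases of the transcript. A match, called a copy here, had 98% identity or more over at least 91 bases, and 14 members had one in the counted gene list. Positions were not compared, so a copy in this count can be an overlapping transcript of the same locus. The copies Gm10260 and Gm11361 of Rps18 were close to absent in both flox-labelled libraries. Gm10260 was read at 62.1, 0.369, 115 and 1.57 CPM in fibroblasts and at 172, 1.39, 147 and 0.625 CPM in B cells. Gm11361 was read at 34.3, 0.848, 13.9 and 0.582 CPM in fibroblasts. The labels give no strain, and whether the animals of the 2 genotypes differ in strain at these or other genes was not tested.

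Copies of Rpl41 and Rpl21 differed between libraries as well. Gm10076, a copy of Rpl41, was read at 89.7, 78.5, 808 and 366 CPM in fibroblasts and at 233, 157, 740.4 and 407 CPM in B cells, highest in the control library after infarction in both. BC004004, whose transcript matches Rpl21, was read at 50.4, 55.7, 178 and 62.0 CPM in fibroblasts. In the same library Rpl21 took its smallest part of the family, with 1.47%, 1.42%, 0.958% and 1.22% in the 4. Whether reads passed between a member and its copies was not tested. The values of Rps18, Rpl41, Rpl21 and the other members with copies are uncertain to that extent. Among those, Rpl29 had 9 near-identical copies, Rpsa 6 and Rpl26 2.

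Neutrophils had the most distinct makeup of the family. Of the 85 members, 3 were at least 2-fold above and 6 at least 2-fold below the mean of the other classes, as parts of the family and in each of the 3 libraries with enough neutrophils. Over all genes, 33.2% were that far from the other classes in their share of UMIs. Rps9, a 40S protein at the mRNA entry site, made up 6.02%, 3.64% and 4.85% of the family in neutrophils of the flox-labelled library without infarction, the control after infarction and the flox-labelled after infarction. The other classes lay between 1.06% and 2.61% in those libraries. Rps27 made up 5.34%, 2.59% and 2.33%, and Rps25, a 40S head protein, 2.62%, 1.45% and 1.60%.

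Those below were Rpl3, Rpl10a, Rps4x, Rpl22l1, Rpl36a and Rps20. Rpl3, a core protein near the peptidyl transferase center, made up 0.204%, 0.305% and 0.269% in neutrophils, 0.259% on average against 0.966% in the other classes. Rps4x, the X-linked 40S protein, made up 0.562%, 0.454% and 0.439%, against 1.13% or more in every other class of those libraries. Rpl10a made up 0.145%, 0.40006% and 0.406%. Rpl12, of the stalk base, was 2.47 (1.96 to 3.04) higher on the log2 scale in neutrophils after infarction in the flox-labelled hearts. That was the farthest above the family of any member there, from 30 UMIs in 107 cells without infarction and 2951 UMIs after it.

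**Figure D4:**
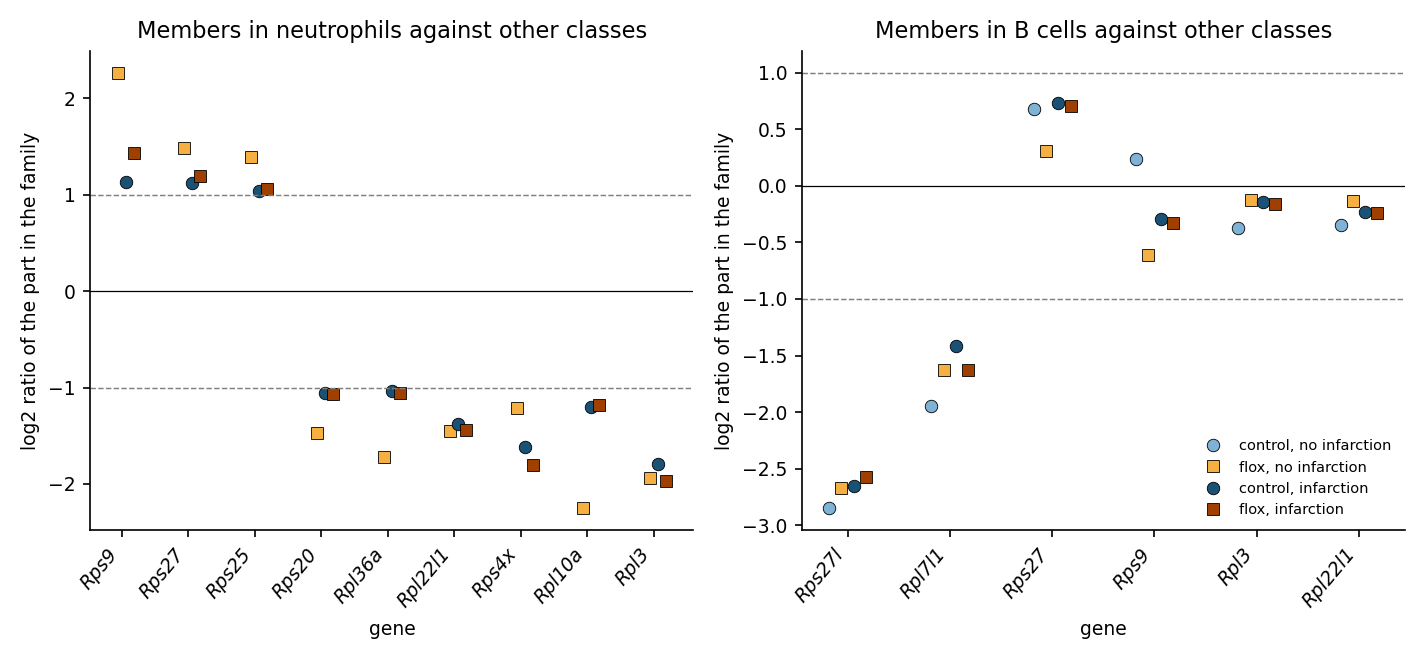
Log2 ratio of a member's part in the family to the mean of the other classes (y axis) for named members (x axis) in neutrophils and B cells, 1 point per library with at least 50 cells and dashed lines at 2-fold. Rps9 lies between 1.14 and 2.27 in neutrophils, and Rps27l between -2.85 and -2.57 in B cells.

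Lymphocytes departed in 2 members each, both paralogs, where 21.7% of all genes in B cells and 16.8% in T and NK cells lay as far from the other classes. Rps27l, a paralog of Rps27 known as a p53 target, was read at 81.3, 84.8, 136 and 133 CPM in B cells and at 86.6, 125, 149 and 191 CPM in T and NK cells. In fibroblasts it was read at 216, 299, 555 and 496 CPM. Rps27 had the opposite order, from 5103 to 7081 CPM in B cells and from 1098.5 to 1878 CPM in fibroblasts. Of the UMIs of this pair, Rps27l took 1.18% to 2.47% in B cells and 13.8% to 28.1% in fibroblasts. Rpl7l1, a paralog of Rpl7 with a role in building the large subunit, was read at 57.2, 40.3, 53.6 and 51.2 CPM in B cells and at 73.7, 68.1, 109 and 94.2 CPM in fibroblasts.

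Rpl22l1 and Rpl36al took large parts of their pairs. Rpl22l1, which can replace Rpl22, was read at 317, 487, 838 and 779 CPM in fibroblasts. It took 27.8%, 30.3%, 36.9% and 37.0% of the pair with Rpl22, with both infarction libraries above both others. In mononuclear phagocytes its part was 27.3%, 26.9% and 26.8%. Rpl36al, a paralog of Rpl36a, was read at 299, 359, 802 and 705 CPM in fibroblasts, 36.8%, 29.4%, 41.6% and 41.9% of its pair. It exceeded Rpl36a in mononuclear phagocytes, at 50.9%, 60.7% and 60.6%, and in neutrophils after infarction, at 68.2% and 69.4%.

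**Figure D5:**
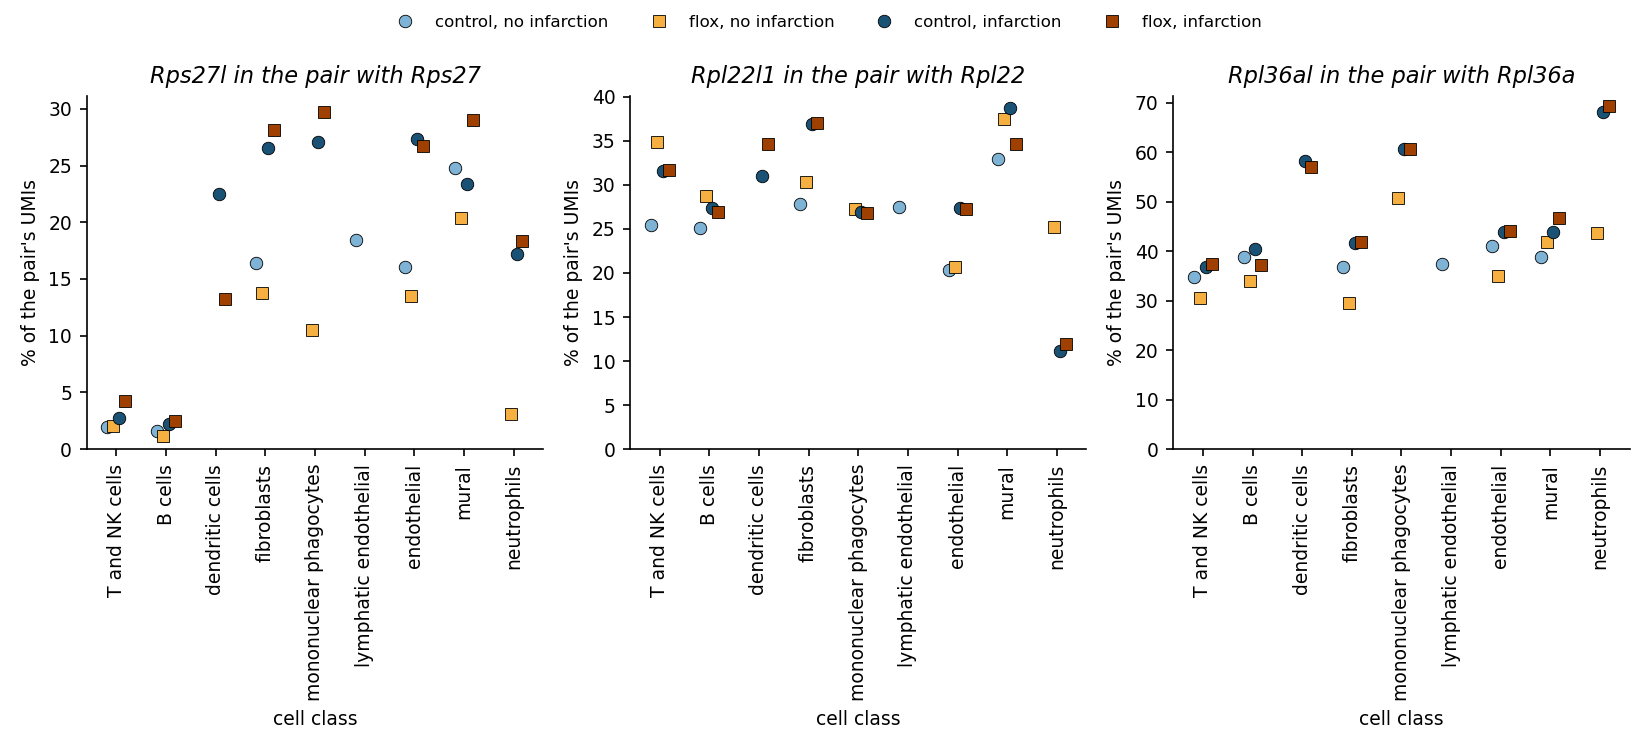
Part of a paralog pair's UMIs (y axis, percent) that came from Rps27l, Rpl22l1 and Rpl36al in each cell class (x axis), 1 point per library. Rps27l stays under 5% in lymphocytes, and Rpl36al is above 50% in mononuclear phagocytes and dendritic cells.

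Rps27rt, a retrocopy of Rps27 at chr9:114982366-114982739 on the minus strand, had the lowest log2 ratio of the members in fibroblasts in both infarction comparisons. It was read at 30.2, 59.6, 17.9 and 21.3 CPM in fibroblasts, with log2 ratios of -0.75 and -1.48. Its part of the pair with Rps27 was lower in both infarction libraries than in both others, over the named classes measured. It ranged over the named classes from 2.43% to 3.98% in the control and from 3.07% to 4.31% in the flox-labelled library without infarction, and from 1.11% to 1.52% and 1.66% to 2.12% after infarction. The 2 transcripts are near-identical, so the counts of Rps27rt may hold reads of Rps27.

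The muscle paralog Rpl3l was rare. It gave 5, 58 and 66 UMIs in neutrophils (11.5, 7.63 and 8.56 CPM) and 8, 102 and 91 in mononuclear phagocytes (12.9, 1.86 and 2.01 CPM). In B cells and in T and NK cells it gave none in any library, where 3 UMIs would be 1.73 to 6.07 CPM. The 8 cardiomyocyte markers summed to 89.6, 14.7 and 36.6 CPM in the same neutrophils and to 56.6, 4.14 and 8.46 CPM in the phagocytes, and their part in the Rpl3l counts was not tested. Rpl39l, a paralog of Rpl39 best known from testis, gave 127 UMIs in mononuclear phagocytes of the control library after infarction and 2 in the flox-labelled one. In fibroblasts of the same libraries it gave 77 and 66.

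Genes around the family were described from lists of related function. Among ribosomal proteins outside the naming rule, Rack1, a 40S scaffold protein, had a log2 ratio of 1.46 in control fibroblasts after infarction and of 0.98 in the flox-labelled hearts. Fau, made as a fusion of a ubiquitin-like protein with a 40S protein, had ratios of 0.79 and 0.29, and of 0.40 for flox-labelled against control without infarction. Of 21 elongation factors and other TOP mRNAs, 16 were at least 1.5-fold higher and none at least 1.5-fold lower in the control, against 24.3% and 40% of all genes (median log2 ratio 0.96), and 11 and 1 in the flox-labelled hearts, against 19.1% and 31.9% (0.59). Npm1, the nucleolar chaperone nucleophosmin, led with 2.54 and 1.80.

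The same shares of all genes, 24.3% higher and 40% lower in the control and 19.1% and 31.9% in the flox-labelled hearts, stand behind each of the counts that follow. Most ribosome assembly genes were higher after infarction. Of 35, 27 were at least 1.5-fold higher and 1 lower in the control (median 0.995), and 23 and none in the flox-labelled hearts (0.93). Nhp2, of the box H/ACA snoRNP, was read at 42.2 CPM without and 222 CPM after infarction in the control, and Sbds, which helps release a factor from new 60S subunits, at 102 and 66.3 CPM. Of 24 initiation factors 14 were higher in the control and 12 in the flox-labelled hearts, each with 1 lower. Eif5a had log2 ratios of 2.25 and 1.74 and Eif4a2 of -1.10 and -0.90. Of 14 genes of RNA polymerase I and its regulators, 5 were higher and none lower in the control, and 7 and 1 in the flox-labelled hearts, among them Myc at 1.35 and 1.01.

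Flox-labelled against control without infarction, these genes had medians below the family's ratio of 0.45, and the difference was not tested. The median log2 ratio was -0.18 for ribosome assembly, with none at least 1.5-fold higher and 4 of 35 at least 1.5-fold lower, against 6.88% and 5.38% of all genes. It was -0.06 for initiation factors, -0.16 for RNA polymerase I and 0.23 for elongation factors and other TOP mRNAs. The nuclear genes of the respiratory chain, taken as another list, had a median of 0.42. Their median with infarction was 0.58 in the control and 0.08 in the flox-labelled hearts. The 15 dissociation and immediate-early genes had medians of -0.87 and -0.77 with infarction and of 0.21 without it.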

How the data were processed

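The deposited files hold UMI counts per gene and barcode, made by the authors with Cell Ranger 5.0.1 on mm10, per the submitters' processing notes. The libraries were 10x 3′ libraries of version 3.1, per the labels' protocols. How reads that match several genes were counted is not given in the sources used here. Barcodes were kept with at least 500 UMIs, 200 genes and at most 20% mitochondrial UMIs. These limits removed 205 to 544 barcodes a library, and a simulated-doublet score, at 0.8% per 1000 barcodes, removed 655 to 1032. Cells were clustered on 2000 variable genes, members left out, with 30 components, 20 neighbours and Leiden resolution 1.0 (leidenalg 0.10.2, scikit-learn 1.9.0, numpy 2.4.6, scipy 1.17.1, Python 3.11.15), with no library correction. A cluster was named when its markers were found more often than elsewhere by a mean difference of at least 0.1 and at least 3 of them each in 20% of cells. Clusters were left without a name when the top 10 genes held more markers of another class, or when its cells were shallow.

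UMIs were summed per class and library, for classes of at least 50 cells. Shares carry exact Clopper-Pearson intervals and log2 ratios exact conditional ones, at 95%. A ratio needed 30 UMIs in either sum. The scripts were tested on simulated data. Median UMIs per kept cell were 4244, 5678.5, 5617 and 5463. No test was run, since each group has 1 library.

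Genes were named by rule: the 10 most abundant members, members at least 2-fold from the other classes in every library (up to 5 each way), the 3 farthest each way from the family per comparison in fibroblasts, endothelial cells, phagocytes and neutrophils, all paralogs, and 2 genes each way per list. Some genes that this rule names are not reported here. Rps21, Rps29, Rpl15, Rpl37, Rpl37a, Rps20, Rpl41 and the near-identical copies were partly chosen after their values were seen. Members and lists were chosen with earlier results of these data known. Promoter windows are from RefSeq (GRCm38.p6), with 250 bases before and 50 after each start, and gene positions and transcripts from GENCODE M21 on GRCm38. The paralogs Rps4l and Rpl26l1 were not analysed here.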

Additional observations from a re-analysis of the deposited data

Results flagged for a closer look

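In 3 classes the family's log2 ratio of flox-labelled to control had opposite signs without and with infarction. It was 0.7019 and -0.1314 in endothelial cells, 0.4474 and -0.1318 in fibroblasts, and 0.6042 and -0.123 in mural cells. Each value rests on 1 library a group, so the difference between them was not tested. In B cells and in T and NK cells the ratio was above 0 both times.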

How the results depend on the processing

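The fibroblast log2 ratio of the family, in the order infarction in control, infarction in flox-labelled, flox-labelled to control without and with infarction, was 1.164, 0.5848, 0.4474 and -0.1318, and no alternative reversed a sign. Scaling by the median of ratios over genes outside the family gave 1.504, 0.8221, 0.4939 and -0.1647, and a mean of the share per cell gave 1.199, 0.5172, 0.4756 and -0.2066. A denominator without mitochondrial genes gave 1.149, 0.5705, 0.4567 and -0.1219, and no doublet removal 1.155, 0.578, 0.4504 and -0.1264. A mitochondrial limit of 10% gave 1.168, 0.591 and -0.1287 for all but the third, and members kept among the clustering genes 1.171 and 0.5915 for the first and second. Departing members, 13, 13, 2 and 0 at 1.5-fold, numbered 1, 3 and 1 at 2-fold in the first 3 comparisons, and 1 in the last with no filter on low counts. Among named classes with at least 50 cells, the log2 ratio of the highest to the lowest class was 2.464, 2.34 and 2.513 in the last 3 libraries. It was 2.507, 2.394 and 2.563 without mitochondrial genes, and 2.504 in the flox-labelled library after infarction with members kept, always with T and NK cells highest and neutrophils lowest. No paired analysis was possible because there was 1 library per group, and no replicate could be left out. A median of 2125 UMIs a neutrophil after infarction and 58 phagocytes without infarction limit the precision of those classes.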
